A study of Mus musculus with 8 samples.

Results

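The uroplakin genes Upk1a, Upk1b, Upk2, Upk3a and Upk3b were described together with the urothelial markers Trp63, Foxa1 and Psca and the mesothelial markers Msln and Lrrn4. These 10 marker genes were chosen by symbol, since Upk3b marks both urothelium and mesothelium, and all 10 were measured among 22180 genes. Each had 1 probe set, so the rule of taking the probe set with the highest mean over the 8 arrays decided nothing. The list was drawn up with earlier results of the same comparison known, in which Upk3b was higher. Calls and p-values of the 10 genes are therefore a description and not independent evidence.

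Kidneys were dissected from mice at E14.5, where E stands for embryonic day, and each array holds the pooled pair of kidneys of 1 embryo. The mutant group, written Grb2_cKO here, had 4 embryos with the genotype Grb2 UB-cKO, a knockout of Grb2 in the ureteric epithelium. The control group had 4 wild-type embryos, and every embryo came from a single litter. The transgene that drove the deletion, the strain and any further alleles were not given in the sources used here. Expression is given as the deposited log2 probe-set value, on which a difference of 1 is a 2-fold change.

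Uroplakins are membrane proteins that form the rigid plaques on the surface of urothelium, the lining of the renal pelvis, ureter and bladder. Upk1a and Upk1b encode tetraspanins, which pair with the products of Upk2 and Upk3a. Upk3b is also made by mesothelium, the sheet of cells that covers the organs of the body cavity, together with Msln (mesothelin) and Lrrn4 (a leucine-rich repeat membrane protein). Trp63 encodes p63, the transcription factor of basal epithelial cells. Foxa1 encodes a forkhead transcription factor of urothelium, and Psca a small surface protein of urothelium and prostate.

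Upk3b and Lrrn4 were the marker genes called higher in Grb2_cKO, and RefSeq sequence before their start sites was set beside that of the uroplakins Upk1a and Upk3a, which were not called. Of the 10 genes, 5 had an entry in the RefSeq promoter table (GRCm38.p6), with Foxa1 as the other one. The 250 bases before each start are printed 5′ to 3′ on the gene's strand, with capitals where the TEAD motif GGAATG, or its reverse complement, stands. The windows are chr5:136038246-136038495 on the plus strand for Upk3b, chr2:132880863-132881112 on the minus strand for Lrrn4, chr7:30612735-30612984 on the minus strand for Upk1a and chr15:85016891-85017140 on the plus strand for Upk3a.
Upk3b: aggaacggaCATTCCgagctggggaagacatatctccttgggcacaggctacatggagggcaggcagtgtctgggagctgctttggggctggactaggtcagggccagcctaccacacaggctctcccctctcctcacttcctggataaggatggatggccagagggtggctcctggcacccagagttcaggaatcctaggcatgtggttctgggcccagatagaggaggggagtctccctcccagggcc
Lrrn4: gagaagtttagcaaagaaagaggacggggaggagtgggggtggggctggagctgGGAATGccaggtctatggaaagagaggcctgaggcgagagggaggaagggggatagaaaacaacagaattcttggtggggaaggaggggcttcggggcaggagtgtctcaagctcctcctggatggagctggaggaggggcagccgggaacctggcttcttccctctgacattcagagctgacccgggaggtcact
Upk1a: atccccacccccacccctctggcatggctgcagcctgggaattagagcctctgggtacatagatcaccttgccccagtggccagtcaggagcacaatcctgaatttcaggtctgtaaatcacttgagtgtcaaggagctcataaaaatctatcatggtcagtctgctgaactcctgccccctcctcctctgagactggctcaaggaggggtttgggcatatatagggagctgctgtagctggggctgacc
Upk3a: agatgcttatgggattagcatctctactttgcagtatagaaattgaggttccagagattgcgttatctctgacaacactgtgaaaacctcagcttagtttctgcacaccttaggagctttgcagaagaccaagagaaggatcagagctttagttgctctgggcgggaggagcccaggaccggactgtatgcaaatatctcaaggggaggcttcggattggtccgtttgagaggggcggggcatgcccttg

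Upk3b and Lrrn4 each held GGAATG 1 time, beginning 241 and 196 bases before the start. The windows of Upk1a, Upk3a and Foxa1 did not hold it, and it stood in 12.6% of all 32851 windows of the same length. The GATA motif AGATAA was in Upk3a alone of the 5 windows, and in 9.99% of all windows. The forkhead motif TGTTTNC was in Lrrn4 and Foxa1 and in 17.8% of all windows. The motifs were searched on both strands, did not overlap in these windows and were chosen after the sequences had been seen. A match is a description of letters and not a site.

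Grb2 itself, the targeted gene, read 8.68, 8.65, 8.61 and 8.66 in control replicates 1 to 4 and 8.36, 8.17, 8.22 and 8.06 in Grb2_cKO replicates 1 to 4. All 4 Grb2_cKO values lay below all controls (log2 fold change -0.45, SE 0.07). Which part of the transcript its probe set reads was not given in the sources used here. Of the genes that check the tissue, Six2, Pax2, Ret, Foxd1, Calb1, Lhx1, Cited1 and Gdnf were measured. Of these, 8 of 8 were called, 7 lower and Foxd1 higher, beside 14.3% of all genes lower and 13.7% higher. Sex-linked genes followed the groups in all but 1 embryo. Averaged over Eif2s3y, Kdm5d and Uty, the Y-linked level was 9.94 to 10.10 in mutants. Control replicate 3 stood at 9.94, and the other 3 controls at 4.09 to 4.24. Thus 3 of 4 controls differed from the mutants in sex as well as in genotype, and folds that take the Y-linked level into account are given for each of the 10 marker genes. Genes of liver were high on some mutant arrays. Alb (serum albumin) read 12.20, 6.83, 7.43 and 9.95 in Grb2_cKO replicates 1 to 4, against 6.39 to 6.94 in controls. Genes of red blood cells were called higher in Grb2_cKO for 4 of 4 measured, where 13.7% of all genes were. Their mean level was 7.18 to 7.71 there against 6.19 to 6.74 in controls. With the Y-linked level as a covariate, 1 of the 4 still passed. In whole kidneys, more cells of a type and more RNA per cell cannot be told apart.

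Upk3b was higher in every Grb2_cKO embryo. It read 7.08, 7.18, 7.19 and 6.87 in control replicates 1 to 4. In Grb2_cKO replicates 1 to 4 it read 7.75, 8.11, 7.80 and 8.23. The groups did not overlap, and replicates 2 and 4 were the highest of the mutants. The means were 7.08 ± 0.15 and 7.97 ± 0.24 (SD, n = 4 each), a rise of 1.86-fold (log2 fold change 0.89, SE 0.12, 95% interval 0.62 to 1.17, adjusted p = 0.000646 in limma). Alb was highest on the arrays of Grb2_cKO replicates 1 and 4. Without them, a setting added after seeing the data, the log2 fold change was 0.87 (adjusted p = 0.00457 in limma). That setting leaves Grb2_cKO replicates 2 and 3 alone, and replicate 3 still read above every control for Alb (7.43 against 6.39 to 6.94). The part of liver tissue in the rise was not tested. When the Y-linked level was added as a covariate, the fold was 0.77 (adjusted p = 0.0594). Among the embryos with high Y-linked genes, 4 mutants against control replicate 3, it stood at 0.78, where the lone control is assumed to vary as the mutants do. The covariate fit rests largely on that same contrast, so these are not separate checks. Its SE was 0.20, against 0.12 without the covariate.

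Lrrn4, the mesothelial marker, had the same order of embryos among the mutants. It read 5.56, 5.54, 5.66 and 5.64 in control replicates 1 to 4. In Grb2_cKO replicates 1 to 4 it read 5.94, 6.56, 6.01 and 6.60. Again no mutant overlapped the controls, and replicates 2 and 4 stood well above the other 2 mutants. The means were 5.60 ± 0.060 and 6.28 ± 0.35 (SD, n = 4 each), a rise of 1.60-fold (0.68, SE 0.15, 95% interval 0.34 to 1.01, adjusted p = 0.00736 in limma). It stood at 0.69 without Grb2_cKO replicates 1 and 4 (adjusted p = 0.0164). It was 0.60 with the Y-linked covariate (adjusted p = 0.206), and 0.62 (adjusted p = 0.292) among the embryos with high Y-linked genes.

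Msln, the best known mesothelial marker, did not pass. It read 6.08, 6.14, 6.001 and 6.06 in controls and 6.09, 5.99, 6.04 and 5.88 in Grb2_cKO, in replicate order. The groups overlapped, with a log2 fold change of -0.07 (95% interval -0.23 to 0.09, adjusted p = 0.52 in limma) and of 0.0020 with the Y-linked covariate. No detection calls were used here, so a level near background could not be told from a low one. As a guide, 1105 olfactory receptor genes read 2.33 at the 5th percentile, 4.29 at the median and 6.25 at the 95th percentile. The means of Msln, Upk3a, Psca and Lrrn4, 4 of the 10 marker genes, lay under that upper value. Probe sets differ in brightness, so this shows neither presence nor absence.

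**Figure D1:**
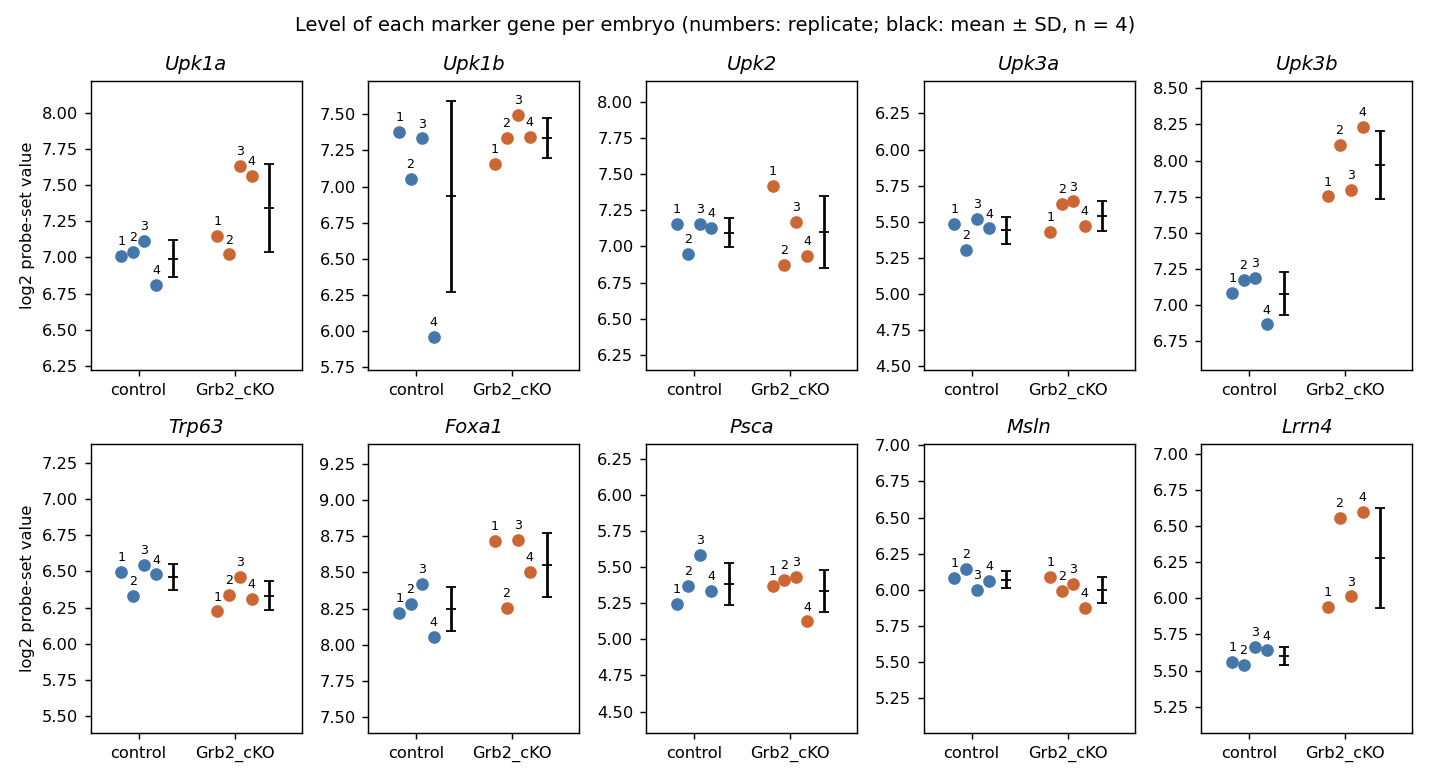
Log2 probe-set value (y axis, each panel spanning 2 units) of the 10 marker genes in 4 control and 4 Grb2_cKO embryos, with the replicate number at each point and mean ± SD in black. For Upk3b and Lrrn4 all mutants lie above all controls, with replicates 2 and 4 highest, and for the other 8 genes the groups overlap.

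The uroplakins other than Upk3b were not called in either direction. Upk1a, a tetraspanin, read 7.01, 7.04, 7.11 and 6.81 in controls and 7.15, 7.02, 7.63 and 7.57 in Grb2_cKO. Mutant replicates 3 and 4 lay clearly above every control and replicate 1 just above the highest, while replicate 2 lay among the controls. The log2 fold change was 0.35 (95% interval 0.04 to 0.66, adjusted p = 0.0941 in limma), which passed without Grb2_cKO replicate 2 (0.46, adjusted p = 0.0283). It was 0.25 without Grb2_cKO replicate 3 (adjusted p = 0.226) and 0.23 with the Y-linked covariate (adjusted p = 0.653).

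Upk1b, the second tetraspanin and also a gene of mesothelium, read 7.38, 7.06, 7.33 and 5.96 in controls and 7.16, 7.34, 7.50 and 7.34 in Grb2_cKO. Control replicate 4 was more than 1 unit below every other embryo, while the others overlapped. The log2 fold change of 0.40 had a 95% interval from -0.20 to 1.01 (adjusted p = 0.324 in limma), the widest of the 10 genes. Without control replicate 4 the log2 fold change was 0.078 (SE 0.11, adjusted p = 0.672 in limma), and with the Y-linked covariate it was 0.0012.

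Upk2, the partner of Upk1a, read 7.15, 6.95, 7.15 and 7.13 in controls and 7.42, 6.87, 7.17 and 6.93 in Grb2_cKO. The means were 7.09 and 7.10, and the mutants spread on both sides of the controls. The log2 fold change was 0.0026 (95% interval -0.26 to 0.27, adjusted p = 0.991 in limma), and its sign changed with the scaling of the arrays and with the Y-linked covariate (-0.05). Upk3a, the partner of Upk1b, read 5.49, 5.31, 5.52 and 5.45 in controls and 5.43, 5.62, 5.64 and 5.47 in Grb2_cKO. Its log2 fold change was 0.10 (95% interval -0.08 to 0.28, adjusted p = 0.412 in limma), and 0.02 with the Y-linked covariate. The interval of Upk3b began at 0.62, above the upper ends for Upk2 and Upk3a, but a difference between these folds was not tested.

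The 3 other urothelial markers did not pass either. Foxa1 read 8.22, 8.28, 8.42 and 8.05 in controls and 8.72, 8.25, 8.72 and 8.50 in Grb2_cKO. Mutant replicates 1, 3 and 4 were above all controls and replicate 2 was within them. Its log2 fold change was 0.31 (95% interval 0.04 to 0.57, adjusted p = 0.0859 in limma), and it passed without Grb2_cKO replicate 2 (0.41, adjusted p = 0.0191). It was 0.14 with the Y-linked covariate (adjusted p = 0.758) and 0.13 among the embryos with high Y-linked genes (adjusted p = 0.781). Trp63 read 6.50, 6.33, 6.54 and 6.48 in controls and 6.22, 6.34, 6.46 and 6.31 in Grb2_cKO. Its log2 fold change was -0.13 (95% interval -0.30 to 0.04, adjusted p = 0.257 in limma), and -0.21 with the Y-linked covariate. Psca read 5.24, 5.37, 5.58 and 5.33 in controls and 5.37, 5.41, 5.43 and 5.12 in Grb2_cKO. The groups overlapped, with a log2 fold change of -0.05 (95% interval -0.26 to 0.17, adjusted p = 0.78 in limma) and -0.25 with the Y-linked covariate (adjusted p = 0.359).

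Of the 10 marker genes 2 were called higher, where 13.7% of all genes were, and 0 were called lower, where 14.3% of all genes were. Before adjustment, 4 of them had a p under 0.05, namely Upk3b, Lrrn4, Foxa1 and Upk1a, all with a positive fold, where 19.2% of all genes had such a p with a positive fold and 18.8% with a negative one. The groups did not overlap for 2 of 10 with Grb2_cKO higher and for 0 of 10 with it lower, against 15.2% and 16.0% of all genes. Since the genes were listed with these results known, nothing is read from the shares. The log2 fold change was positive for 7 genes and negative for 3, with a median of 0.20 against 0.0058 over all genes. After adding the Y-linked covariate in limma, 0 of the 10 genes were called, where 5.62% of all genes did in either direction, and the median was 0.011. Without Grb2_cKO replicate 2 the count was 4, with Upk1a and Foxa1 added.

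**Figure D2:**
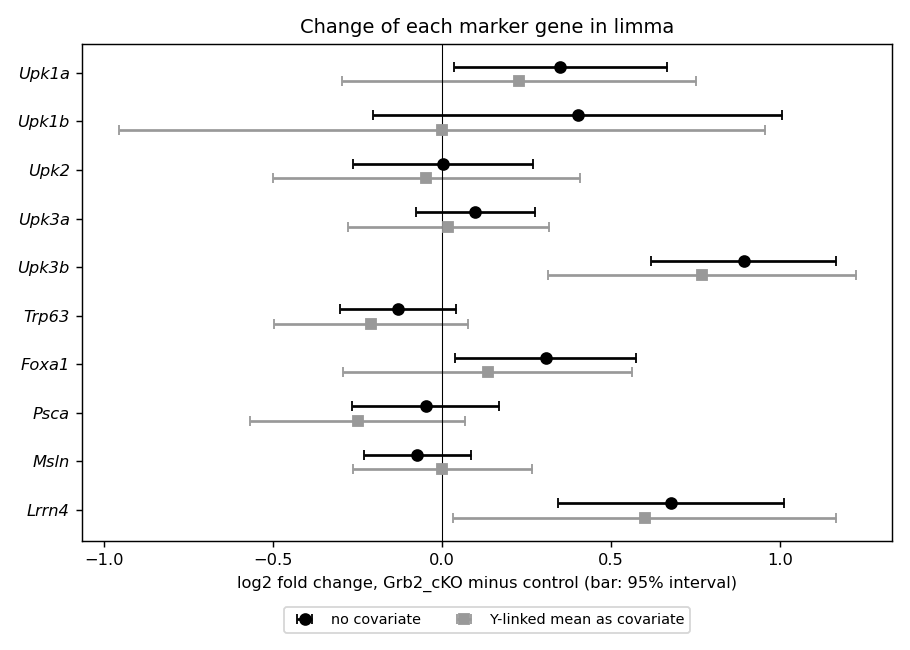
Log2 fold change of the 10 marker genes (x axis, Grb2_cKO minus control) with 95% intervals from limma, without a covariate (black circles) and with the Y-linked level as covariate (grey squares). The intervals of Upk3b and Lrrn4 lie above 0 in both fits, at 0.62 to 1.17 and 0.34 to 1.01 without the covariate, and the grey intervals are wider for all 10 genes.

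Among the mutants, Upk3b and Lrrn4 had the same order of embryos, and Upk2 was lowest in replicates 2 and 4, where both were highest. After subtracting each group's mean, Pearson's r over the 8 embryos was 0.794 between Upk3b and Lrrn4, -0.760 between Upk3b and Upk2, and -0.809 between Lrrn4 and Upk2. It was -0.643 between Upk3b and Msln, -0.801 between Lrrn4 and Msln, and 0.924 between Upk3a and Trp63. Only some pairs of the 10 marker genes are given. Foxa1 stood at -0.69 with Lrrn4 and at 0.64 with Upk2. All values come from the same 8 arrays and are a description. Those with Lrrn4 rest mostly on the mutants, whose SD was 0.35 against 0.060 in controls. Among the controls Upk3b was lowest in replicate 4, where Lrrn4 was the second highest. Over all genes, those most like Upk3b by this measure were Tmigd1 (r = 0.985), Prpf40b (0.982), Mir100hg (0.974), Mir3075 (0.969) and 8430426J06Rik (0.964). Of these 5, Mir100hg, the host of a microRNA cluster, also rose in Grb2_cKO (log2 fold change 0.89, adjusted p = 0.00040 in limma), and the other 4 were not called. Tmigd1 read 3.95 to 4.19, under the olfactory receptor median of 4.29, and Prpf40b spanned only 8.58 to 8.71. Whether such r exceed those that chance gives at the top of so many genes was not tested.

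Other genes of mesothelium were measured to set beside Upk3b and Lrrn4. Of 19 measured, 7 rose, 0 fell and 12 did not pass, and 17 had a positive fold (median 0.15). Over all genes, 13.7% were called higher and 14.3% lower. Bnc2, a zinc finger gene that stromal cells also express, rose 2.64-fold from 10.04 ± 0.09 to 11.43 ± 0.17 (SD, n = 4 each). Igfbp6, a binding protein of insulin-like growth factors, rose 1.85-fold. Efemp1, a fibulin of the extracellular matrix, and Ildr2, a membrane protein, rose 1.67-fold and 1.65-fold. Wt1, a transcription factor of mesothelium that nephron progenitors and podocytes express as well, rose 1.21-fold (log2 fold change 0.28, adjusted p = 0.0319 in limma). Gpm6a and Bnc1, further markers of mesothelium, did not pass, at 0.38 (adjusted p = 0.117) and 0.15 (adjusted p = 0.385). Rspo1, which other kidney cells also make, stood at -0.56 (adjusted p = 0.0523 in limma), named after its value was seen. Which kidney cells the values of the listed genes come from was not tested.

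The count for mesothelium moved with single embryos. It was 3 without control replicate 1, without control replicate 2 or without Grb2_cKO replicate 3, and 4 without Grb2_cKO replicate 4. Ildr2 was lost without control replicate 1 or 2 or Grb2_cKO replicate 3, and Wt1 without any 1 of 6 embryos (controls 1, 2 and 3, Grb2_cKO 2, 3 and 4). Wt1 was also lost after centring on array medians (0.21, adjusted p = 0.0825). Bnc2, 1 of the 7, still passed with the Y-linked covariate (1.44, adjusted p = 0.00613 in limma). Efemp1 and Igfbp6 were lost with that covariate, at 0.67 (adjusted p = 0.214) and 0.75 (adjusted p = 0.0572). Efemp1 was highest in Grb2_cKO replicates 1 and 2 (10.04 and 10.10, against 9.34 and 9.41 in replicates 3 and 4), while Ildr2 was highest in replicates 3 and 4 (7.86 and 8.15, against 7.25 and 7.21). Neither followed the order of Upk3b.

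Genes on a list for the traffic of uroplakins were lower where they were called. The part of these genes in uroplakin traffic in these kidneys was not tested. Of 9 measured, 3 fell, 0 rose and 6 did not pass (median -0.17), beside 14.3% of all genes lower and 13.7% higher. The 9 include the uroplakin-3b-like gene Upk3bl, named after its value was seen. Upk3bl did not pass (log2 fold change 0.08, adjusted p = 0.516 in limma). Mal2, a protein of apical transport, fell 2.78-fold, from 11.26 ± 0.05 to 9.79 ± 0.22 (SD, n = 4 each), and still passed with the Y-linked covariate (log2 fold change -1.48, adjusted p = 0.00649 in limma). Rab27b, a small GTPase that brings uroplakin vesicles to the surface of umbrella cells, fell 1.32-fold. Myo5b, a motor protein, fell 1.27-fold. Myo5b was lost without control replicate 1 or 2 or Grb2_cKO replicate 1 or 2 (adjusted p from 0.0587 to 0.0719). Myo5b and Rab27b were also lost without Grb2_cKO replicates 1 and 4 together, at -0.27 and -0.34 (adjusted p = 0.118 and 0.052).

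Among 9 measured keratins, 1 fell, 1 rose and 7 did not pass (median -0.026), beside 14.3% of all genes lower and 13.7% higher. Krt18, the simple epithelial keratin, fell 1.55-fold (adjusted p = 0.000912 in limma). Its partner Krt8 stood at -0.26 (adjusted p = 0.136). Krt19, a keratin of urothelium that is on the mesothelial list too, rose 1.40-fold (log2 fold change 0.48, adjusted p = 0.0217 in limma), with 7.25, 7.28, 7.50 and 7.25 in controls and 7.70, 7.45, 8.03 and 8.03 in Grb2_cKO. Its groups overlapped, and it was lost without control replicate 1, 2 or 4 or Grb2_cKO replicate 3 or 4. Krt19 was lost too with the Y-linked covariate (0.30, adjusted p = 0.484) and without Grb2_cKO replicates 1 and 4 together (0.42, adjusted p = 0.119). The keratin count was 1 without each of these single embryos except control replicate 4. Krt5, the keratin of basal urothelium, was not analysed here.

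Of 15 transcription factors and signals of urothelium, 6 fell, 2 rose and 7 did not pass (median -0.20), beside 14.3% of all genes lower and 13.7% higher. Ehf, an ETS factor of epithelia, fell 2.03-fold. Tfap2a fell 1.84-fold, Grhl2, which maintains epithelial junction genes, 1.62-fold, and Ovol1 1.44-fold. Gata3, a factor of the ureteric bud and of urothelium, fell 1.33-fold (log2 fold change -0.41, SE 0.09, adjusted p = 0.00573 in limma). The 2 that rose were Klf5 at 0.36 (adjusted p = 0.0172) and the retinoic acid receptor gene Rarg at 0.39 (adjusted p = 0.00243), named after their values were seen. Klf5 was lost without control replicate 2 or Grb2_cKO replicate 3 (adjusted p = 0.0509 and 0.0512), and without Grb2_cKO replicates 1 and 4 together (0.28, adjusted p = 0.118). Shh, the signal from urothelium to the ureter wall, did not pass (-0.17, adjusted p = 0.177). Ehf and Grhl2, 2 of the 8, still passed with the Y-linked covariate.

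On the list of 12 junction and surface genes, 5 fell and 7 did not pass, with 0 that rose (median -0.23). Over all genes, 14.3% were called lower and 13.7% higher. Epcam, an adhesion gene of all ureteric epithelium, fell 2.20-fold. It read 10.68 to 10.80 in controls and 9.93, 9.31, 9.82 and 9.32 in Grb2_cKO replicates 1 to 4. The mutants with the lowest Epcam, replicates 2 and 4, were those with the highest Upk3b and Lrrn4. The tight junction genes Cldn3 and Cldn4 fell 1.67-fold and 1.41-fold, and Dsp, which encodes desmoplakin, fell 1.41-fold. Cldn3 and Cldn4 were lowest in Grb2_cKO replicates 2 and 4 as well, but Dsp was lowest in replicates 1 and 2. Among genes of the ureteric bud, Calb1, Ret and Pax2 were lowest in replicates 3 and 4, and Etv5 in replicates 2 and 3. A link between these levels and Upk3b or Lrrn4 was not tested. Without Grb2_cKO replicates 1 and 4, Cldn4 was -0.54 against -0.50 with all arrays and Dsp -0.43 against -0.49, and neither passed with the fewer arrays (adjusted p = 0.066 and 0.0518 in limma).

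**Figure D3:**
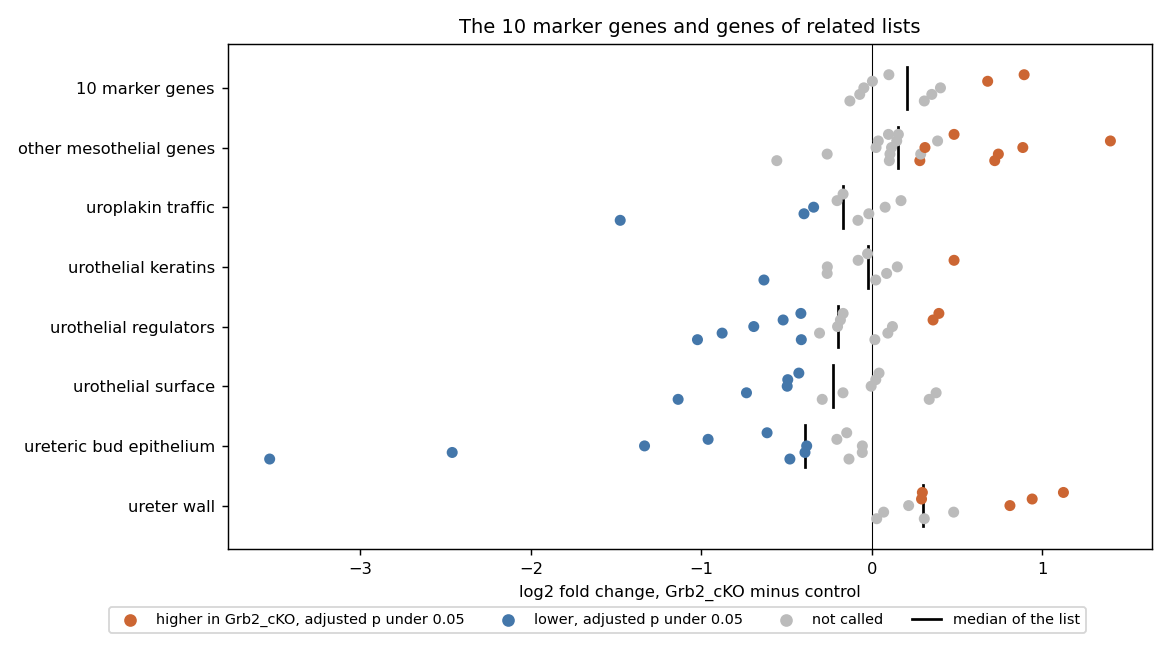
Log2 fold change (x axis, Grb2_cKO minus control) of the genes measured in 8 lists, with genes called higher in orange, called lower in blue and not called in grey, and the median of each list as a black line. Called genes of the mesothelial and ureter wall lists lie to the right of 0 and those of the traffic, surface and ureteric bud lists to the left.

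The surrounding tissues of urothelium were read in the same way, beside 13.7% of all genes called higher and 14.3% lower. In the epithelium of the ureteric bud and collecting duct 8 of 13 fell and 5 did not pass, with 0 that rose (median -0.39). Calb1 fell 11.6-fold, Ret 5.51-fold, Etv5 2.52-fold and Pax2 1.95-fold. Of 10 ureter wall genes, 5 rose and 5 did not pass, with 0 that fell (median 0.30). Tbx18, a transcription factor of the mesenchyme around the ureter, rose 2.18-fold, Myocd, an activator of smooth muscle genes, 1.92-fold, Tshz3 1.75-fold and Bmp4 1.23-fold. The ureter wall count was 3 without control replicate 1, 2 or 3, without Grb2_cKO replicate 3 and after centring on array medians. Bmp4 was lost in each of these cases and without Grb2_cKO replicate 1 or 2. Of the 8 bud genes 5, and of the 5 wall genes 2, still passed with the Y-linked covariate.

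**Figure D4:**
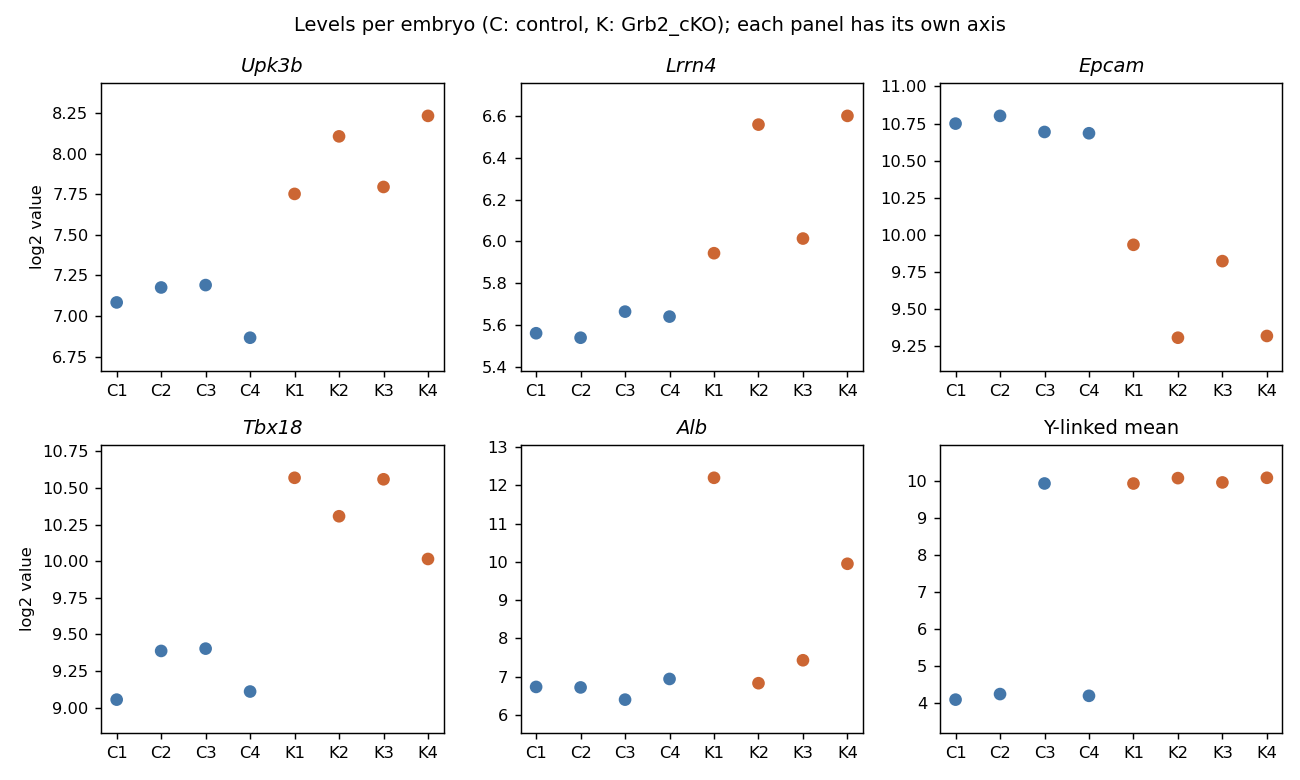
Log2 value (y axis, own scale in each panel) of Upk3b, Lrrn4, Epcam, Tbx18 and Alb and the mean of the Y-linked genes in each embryo, controls C1 to C4 in blue and Grb2_cKO K1 to K4 in orange. Upk3b and Lrrn4 are highest in K2 and K4, where Epcam is lowest, Alb is highest in K1 and K4, and C3 has the Y-linked level of the mutants.

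Adrenal gland and gonad lie next to the kidney and are covered by mesothelium too, so their genes were read beside Upk3b and Lrrn4. Of 8 adrenal genes 0 rose and 2 fell (median -0.036), namely Mc2r, the receptor for corticotropin, at -0.72 and Nr0b1 at -0.51. The mean level of the list lay between 5.71 and 5.75 in controls and between 5.50 and 5.82 in mutants. On the gonad list of 11, 2 rose, 8 did not pass and 1 fell (median 0.19). For both lists, the shares over all genes were 13.7% higher and 14.3% lower. Inha, an inhibin subunit, rose by 0.48 and Lhx9, a factor of the gonadal ridge, by 0.31, while Fgf9, which nephron progenitors also make, fell by 0.67 on the log2 scale. Lhx9 was lost without control replicate 1, 2 or 3 or Grb2_cKO replicate 1 or 2, after centring on array medians (0.24, adjusted p = 0.0921) and without Grb2_cKO replicates 1 and 4 together (0.36, adjusted p = 0.071). The gonad list's mean level lay between 6.61 and 6.77 in controls and between 6.76 and 6.82 in mutants. In limma, 0 adrenal and 0 gonad genes passed with the Y-linked covariate. The part of these tissues in the rise of Upk3b and Lrrn4 was not tested.

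Of 7 liver and gut genes 1 passed, with a positive fold, where 13.7% of all genes were called higher. The mean level of the list lay between 6.20 and 6.36 in controls and between 6.27 and 8.16 in mutants. Ttr, the thyroid hormone carrier, rose by 0.81 (SE 0.25, adjusted p = 0.0345 in limma) and read 8.15, 6.73, 7.10 and 7.32 in Grb2_cKO replicates 1 to 4, against 6.36 to 6.68 in controls. The count was 0 without control replicate 1, 2 or 4 or Grb2_cKO replicate 4, 2 without Grb2_cKO replicate 3 and 4 without Grb2_cKO replicate 2. Alb stood at 2.41 (SE 0.97, adjusted p = 0.0966), Afp at 1.44 (adjusted p = 0.0944) and Apoa1 at 0.72 (adjusted p = 0.175), named after their values were seen. Without Grb2_cKO replicate 2, Alb was 3.17 (adjusted p = 0.0278) and Afp 1.98 (adjusted p = 0.0113). In Grb2_cKO replicate 2 Alb was at the level of the controls, and Upk3b and Lrrn4 were at 8.11 and 6.56, the second highest values of the series for both. In Grb2_cKO replicate 4 Alb read 9.95, and Upk3b and Lrrn4 were at 8.23 and 6.60, the highest values for both. The part of liver tissue in these values was not tested.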

How the data were processed

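The authors deposited log2 values for 41345 probe sets on 8 1-colour arrays, with the Transcriptome Analysis Console (no version) listed in the submitters' processing notes. How background was corrected and arrays were normalized was not given in the sources used here. The log2 scale was read from the deposited values (1.25 to 14.1, array medians 6.61 to 6.72). No value was transformed again. Of the probe sets, 23521 had 1 gene symbol, 1814 several and 16010 none in the platform annotation used here. Symbols were updated through Entrez identifiers for 23328, which left 22180 genes, each by its brightest probe set. The number of arrays limits the precision.

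Groups were compared in limma 3.58.1 (R 4.3.3) with no covariate, over all 22180 genes, with Benjamini-Hochberg adjustment and a threshold of 0.05. The fit was checked on simulated data. The marker genes, the related lists and the alternatives were chosen with earlier results of these data known. Genes named are Grb2, the 10 marker genes, up to 4 called genes of largest change per list, Krt5, Krt8, Krt18, Gata3, Shh, Wt1, Gpm6a and Bnc1, the genes of the tissue check and the 5 genes most like Upk3b. Other names are marked as given after their values were seen. Lists were described by counts and medians, with no set test. The fit was repeated after quantile normalization or subtraction of array medians, without the dimmest 0.25 of genes, with probe sets averaged per gene, with array weights, with a trended and robust variance, with the Y-linked level as covariate, over the arrays of high Y-linked level alone, and without each embryo. Leaving out Grb2_cKO replicates 1 and 4 together was added after seeing the data. Replicates were numbered in the order of the samples' records.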

Additional observations from a re-analysis of the deposited data

Results flagged for a closer look

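Over the named genes, 106 groups of 4 embryos were examined for an embryo apart from the other 3, and 6 had one. Chance gives about 1 in 20. Among the marker genes this was Upk2 in control replicate 2, at 6.95 against a next lowest 7.13. In controls, Krt18 was low in replicate 4 (9.68, next 9.89), Krt19 was high in replicate 3 (7.50, next 7.28) and Calb1 was high in replicate 1 (11.7, next 11.4). In Grb2_cKO, replicate 2 was apart for Gata3 (8.08, next 8.37) and for Bnc1 (6.34, next 5.88), which is the mutant with the second highest Upk3b. The low Upk1b of control replicate 4 was not among the 6.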

How the results depend on the processing

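Upk3b and Lrrn4 kept their direction under all 16 alternatives and the one chosen after seeing the data. Their log2 fold changes ran from 0.77 to 0.97 and from 0.57 to 0.79. All mutants lay above all controls for both genes, so no choice of embryos could turn the sign. Averaging probe sets, leaving out dim genes and changing the variance model could not move the log2 fold change of either gene. Both lost their call with the Y-linked covariate. Leaving aside the fit with 1 control, both passed in the others. With the Y-linked covariate the counts of called genes were 0 for the marker genes, adrenal, gonad and liver, 1 for other mesothelial genes, traffic and keratins, 2 for regulators, surface genes and ureter wall, 5 for bud epithelium and 1246 for all genes, against 6227 without it. Among the arrays with a high Y-linked mean they were 0 for the marker genes, adrenal, gonad, liver and keratins, 1 for mesothelial genes, traffic, surface genes and ureter wall, 2 for regulators and bud epithelium, and 285 for all genes. That comparison has 1 control and 3 fewer arrays. Without Grb2_cKO replicates 1 and 4 together the counts were 0 for liver, 1 for traffic and keratins, 3 for surface genes and ureter wall, and 3888 for all genes. Quantile normalization gave 0 for liver, centring on medians 3 for ureter wall, and leaving out the dimmest genes 1 for adrenal, since Nr0b1 was left out. That setting gave no value for Psca, Upk3a, Shh or Nr0b1.

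Leaving out 1 embryo at a time gave 2 to 4 called marker genes, 0 to 4 liver, 3 to 7 mesothelial, 3 to 5 ureter wall and 1 to 2 keratin genes, and 4894 to 5955 of all genes. Signs turned for values near 0. Upk2 was -0.067 after quantile normalization, -0.065 after centring, -0.045 with the Y-linked covariate, -0.057 among high Y-linked arrays, -0.104 to 0.078 over the embryos left out (-0.047 without control replicate 2, -0.021 without Grb2_cKO replicate 3), and -0.076 without Grb2_cKO replicates 1 and 4. Psca ran from -0.093 to 0.023 over the embryos left out, with 0.019 without control replicate 3, 0.023 without Grb2_cKO replicate 4 and 0.041 without Grb2_cKO replicates 1 and 4. Msln was 0.0020 with the Y-linked covariate. The causes were not tested. No paired analysis was possible because the labels give no replicate numbers shared between the groups.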
